A study of Nicotiana tabacum with 30 samples.

Results

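The second hour of a short drought series was followed in leaves of the tobacco (Nicotiana tabacum) cultivar K326, by comparing 3 libraries taken at 2 h with 3 taken at 1 h, 6 of the 30 libraries of the series. The members were set by the sample labels, with earlier results of these data known. The series holds K326 and M28, 1 mutant line made from K326 with the mutagen EMS, which the labels present as more drought resistant, at 0, 1, 2, 4 and 8 h, with 3 libraries in each of the 10 groups. K326 at 0 h serves here to tell continued change from return, and M28 at 2 h and 1 h to ask where the K326 step differs. Seedlings grew in pots of soil under 16 h of light a day and were treated as potted groups of 3 seedlings at the stage of 5 full leaves. The protocol names natural drought and drought simulated with 200 mM mannitol, and neither treatment is assigned to single libraries in the labels. The titles of the 30 libraries name no control without drought at 1 to 8 h. Time under drought and time of day can therefore not be told apart. The source field of the labels names seeds where the tissue is given as leaf. The protocol speaks of 3 replicates of potted seedlings per genotype, without saying whether each library had plants of its own, so the spread behind the p-values is that between libraries and may be technical.

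When water runs short, leaf cells lose turgor and the hormone abscisic acid builds up. It binds soluble receptors, which block a group of protein phosphatases and so free protein kinases that switch on transcription factors and close the stomata. Transcripts of signalling and regulatory proteins are known to respond early and often briefly, while those of protective proteins and of enzymes for osmolytes and waxes build up later. Tobacco is an allotetraploid that carries near-identical gene copies from both ancestral species, and how reads were shared between such copies is not given in the sources used here. Single genes below are uncertain to that extent.

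Expression was given as FPKM, fragments per kilobase of gene scaled to the mapped fragments of the library, for 35519 gene IDs. The table does not pair the IDs with names, and 0 of them were found in the RefSeq gene table. Genes are therefore given by ID without a function, and the leaf tissue could not be checked against marker genes. In whole leaves, fewer cells of a type and less RNA per cell cannot be told apart. The values were compared as log2(FPKM + 1) for 19599 genes, those that averaged 1 FPKM or more across the 30 libraries, and changes below are on that scale, which understates the change of low genes. Calls were made where the adjusted p was below 0.05 (limma, Benjamini-Hochberg over all genes tested, all 30 libraries in 1 fit).

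The 2 h libraries were more alike than the 1 h libraries. Pearson correlations of log2 values between replicates lay between 0.984 and 0.988 at 2 h and between 0.976 and 0.983 at 1 h. The median SD of a gene within a group was 0.117 at 2 h and 0.170 at 1 h. The 1 h value was the largest of the 10 groups, while the fit gives all groups a single spread. At 1 h, replicate 3 stood farthest from the 0 h libraries, with a mean correlation of 0.935 against 0.957 and 0.963 for replicates 1 and 2. Replicate 2 stood nearest to the 2 h libraries, at 0.977, against 0.969 and 0.962 for replicates 1 and 3. Steps between low values placed the sequencing depth at 1.00 to 1.13 in the 2 h libraries and 1.08 to 1.34 in the 1 h libraries, relative to K326 2 h replicate 1. The absolute depth is unknown. Genes at 1 FPKM or more numbered 19274 ± 50.4 (SD, n = 3) at 2 h and 18946 ± 185 at 1 h, without overlap (two-sided exact permutation test, p = 0.1, the smallest that 3 libraries against 3 allow, 0.3 adjusted over 3 measures). The 100 most abundant genes held 34.7% ± 0.678 of the FPKM total at 2 h and 36.5% ± 3.11 at 1 h, with overlap (exact permutation p = 0.4).

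The second hour brought a change in 3544 genes, 18.1% of those tested. Of these, 2374 (12.1% of all tested) were higher and 1170 (5.97%) were lower at 2 h than at 1 h. Most changes were small, with a median size of 0.51 among the genes called and 1724 of them under 0.5. A change of at least 2-fold was reached by 161 genes upward (0.821% of all tested) and 162 downward (0.827%), 323 in all (1.65%). Of these, 7 rose and 11 fell at least 4-fold. The libraries of 2 h and 1 h did not overlap in 3318 of the 3544 genes called, against 32.6% of all genes tested. The first hour, which ends at the same 1 h libraries, gave 6028 calls (30.8%) and 974 of at least 2-fold (4.97%). Later steps gave 2528 calls (12.9%) for 4 h against 2 h and 5479 (28.0%) for 8 h against 4 h.

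The balance of directions depended on scaling. The median gene moved by 0.09 with the deposited values, and 67.0% of the genes called were higher at 2 h. After median-of-ratios scaling 43.1% were higher and after quantile normalization 47.2%, both of which centre the genes by construction, and after rescaling to equal totals 69.2%. The number called was 1618 when only K326 at 0, 1 and 2 h was fitted, and 2300 without K326 1 h replicate 3. Upward changes of at least 2-fold numbered 306 without K326 1 h replicate 1, and downward ones 265 without replicate 2.

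**Figure D1:**
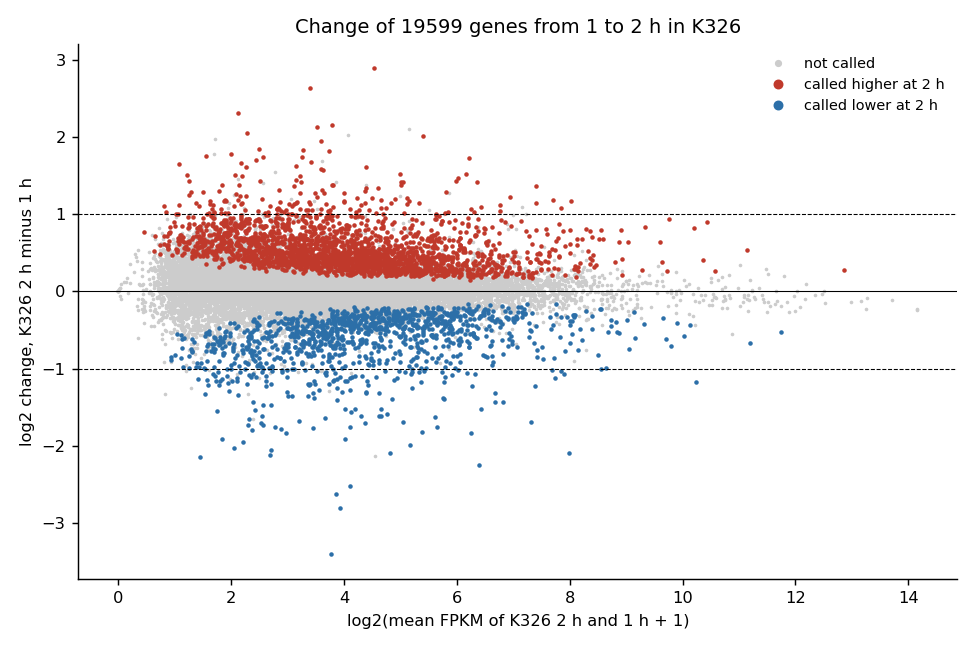
Each point is 1 of 19599 genes, with the mean level of the K326 2 h and 1 h libraries on the x axis as log2(FPKM + 1) and the log2 change, 2 h minus 1 h, on the y axis. Red and blue mark the 2374 genes called higher and the 1170 called lower at 2 h, and dashed lines mark a 2-fold change.

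The genes with at least 2-fold changes were of moderate level. Over the 161 that rose, the median FPKM per library was 12.5, 12.6 and 12.6 at 2 h, against 5.56, 4.84 and 3.58 at 1 h. Over the 162 that fell it was 5.95, 6.69 and 5.28 at 2 h, against 20.4, 12.5 and 18.9 at 1 h. K326 1 h replicate 2 was thus the 1 h library nearest to 2 h for the falling genes, and replicate 3 the farthest for the rising ones. The rising set had a median of 6.48 FPKM at 0 h and of 13.1 and 13.3 FPKM at 4 and 8 h. The falling set had a median of 8.53 FPKM at 0 h and of 6.27 and 5.74 FPKM at 4 and 8 h. Its 1 h level was the highest of the 5 times. Both sets were chosen on the step itself. That choice favours a high 1 h level in the falling set and a low 1 h level in the rising set.

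Among 123 rising genes with at least 5 FPKM at 2 h and no overlap between libraries, the increase had a median of 1.17 and a largest value of 2.90. The largest was that of Nitab4.5_0005259g0040, which had 38.1, 40.5 and 39.9 FPKM at 2 h, against 4.64, 2.83 and 6.42 FPKM at 1 h. All 3 libraries at 2 h were far above all 3 at 1 h (log2 change 2.90, SE 0.188, adjusted p = 3.13e-10 by limma). Its level was 0.377 ± 0.201 FPKM (SD, n = 3) at 0 h, 339 ± 23.5 at 4 h and 90.8 ± 7.09 at 8 h, and the step belonged to a climb that lasted until 4 h. The second largest, Nitab4.5_0001508g0050, had 15.0, 18.8 and 17.4 FPKM at 2 h, against 1.85, 2.75 and 1.22 FPKM at 1 h (log2 change 2.65, SE 0.196, adjusted p = 1.35e-09). At 0 h it stood at 1.55 ± 0.643 FPKM, and the first hour did not pass the test (log2 change 0.20, adjusted p = 0.462). It had 57.6 ± 2.65 FPKM at 4 h.

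Of the falling genes, 133 met the same criteria with the higher level at 1 h, with a median change of -1.25. Nitab4.5_0002113g0180 had 1.51, 1.34 and 1.04 FPKM at 2 h, against 29.0, 16.5 and 26.5 FPKM at 1 h (log2 change -3.41, SE 0.331, adjusted p = 1.62e-07). At 0 h it had 0.304 ± 0.278 FPKM, and in the first hour it had risen by 4.25 on the log2 scale (SE 0.331, adjusted p = 4.96e-10). Its 2 h level differed from 0 h by 0.83 on the log2 scale, which missed the threshold (adjusted p = 0.053). Nitab4.5_0001671g0100 had 1.40, 3.51 and 3.06 FPKM at 2 h, against 36.8, 13.2 and 26.9 FPKM at 1 h (log2 change -2.81, SE 0.306, adjusted p = 8.76e-07). This gene fell in both hours, with 71.8 ± 3.27 FPKM at 0 h. It then rose to 8.00 ± 2.51 FPKM at 4 h, against 2.66 ± 1.11 FPKM at 2 h (log2 change 1.31, SE 0.306, adjusted p = 0.0045), and had 4.48 ± 0.651 FPKM at 8 h.

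**Figure D2:**
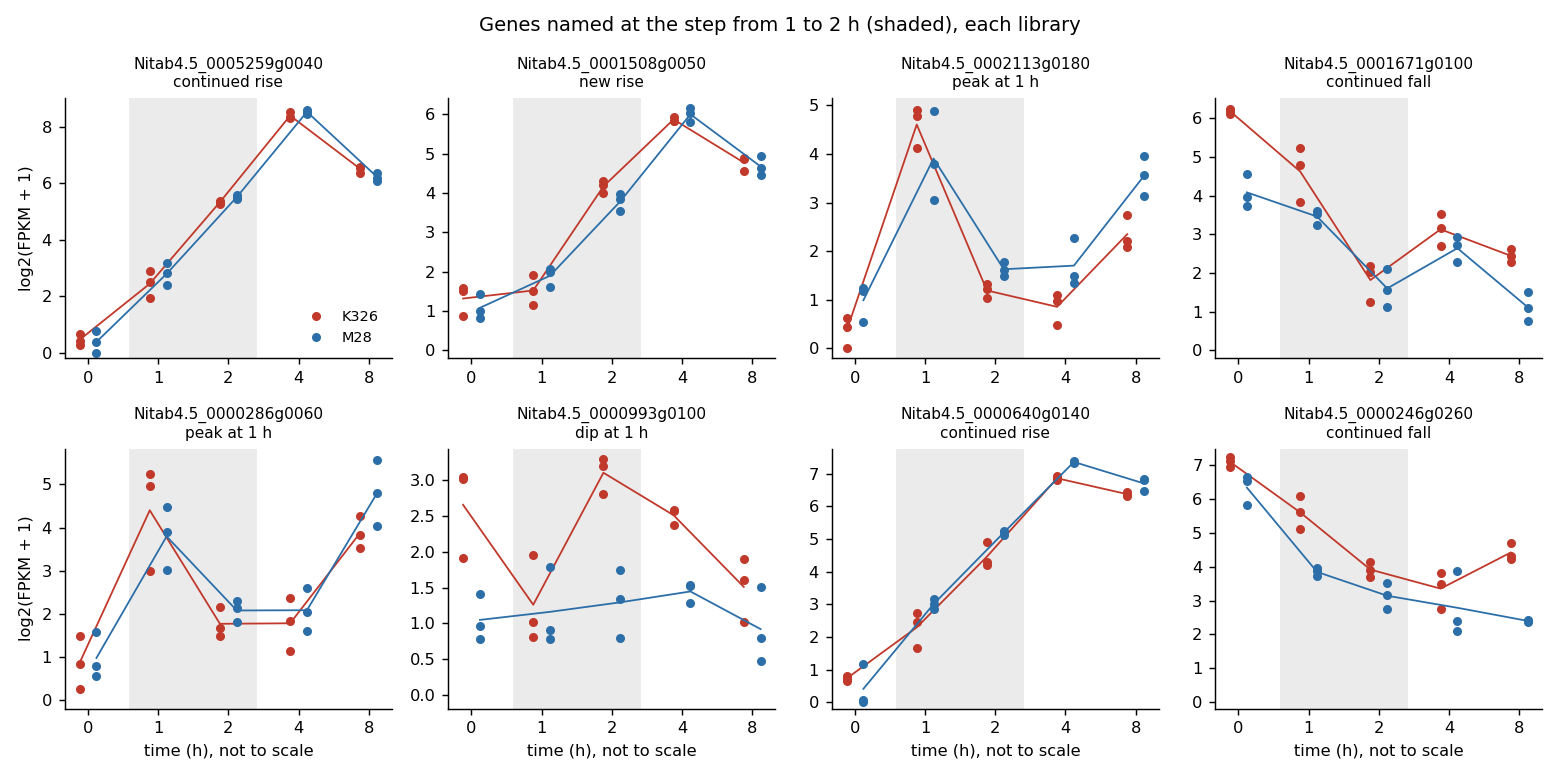
Each panel shows 1 gene, with time on the x axis (not to scale) and log2(FPKM + 1) on the y axis. Red points are K326 and blue points M28 libraries, lines join the means of 3 libraries, and grey shading covers 1 and 2 h. Nitab4.5_0005259g0040 and Nitab4.5_0000640g0140 climbed through both hours, while Nitab4.5_0002113g0180 and Nitab4.5_0000286g0060 peaked at 1 h.

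The genes called at the step were then placed by their own change in the first hour. The step and the first hour share the 1 h libraries, so that an error in those libraries moves both, in opposite directions. Of the 3544 genes, 1219 (34.4%) had changed in the opposite direction in the first hour and were returning, 539 (15.2%) had changed in the same direction and continued, and 1786 (50.4%) had not passed the test in the first hour. In the first hour itself 17.9% of all genes tested were called higher and 12.8% lower. Of the 2374 genes that rose at the step, 403 had risen in the first hour and 616 had fallen. Of the 1170 that fell, 136 had fallen and 603 had risen. By direction, the continued shares were thus close to those of all genes tested, and the returning shares were larger. The shared 1 h libraries lower the former and raise the latter. Among changes of at least 2-fold at the step, 168 were returns, 45 were continued and 110 had no call in the first hour.

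Seen from the first hour, 518 genes (2.64%) had risen at least 2-fold by 1 h. At the step 176 of these (34.0%) fell, against 5.97% of all genes tested, and 58 (11.2%) rose further, close to the 12.1% of all genes tested. The other 284 did not pass the test. Of 456 genes (2.33%) that had fallen at least 2-fold by 1 h, 123 (27.0%) rose at the step, against 12.1% of all genes tested, and 32 (7.02%) fell further, close to the 5.97% of all genes tested. The other 301 did not pass the test. Both lists were chosen on the 1 h libraries, which the step also uses. An error in those libraries raises the share that turns back and lowers the share that continues. The shares of all genes tested are therefore not an even reference for these lists.

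Returning genes were divided into 603 with a peak and 616 with a dip at 1 h. The level of the peak genes, as a median over genes, was 12.1 FPKM at 0 h and 21.5 FPKM at 1 h, followed by 13.8, 12.8 and 13.7 FPKM at 2, 4 and 8 h. By library it was 13.8, 14.1 and 13.6 FPKM at 2 h, against 23.7, 18.0 and 22.8 FPKM at 1 h, with replicate 2 the lowest of the 1 h libraries. Their median change was 0.67 in the first hour and -0.54 in the second. At 2 h, 440 of them no longer differed from 0 h at the threshold, 148 were still above it and 15 were below. The dip genes stood at a median of 16.0 FPKM at 0 h, 9.25 at 1 h and 14.8 at 2 h, and their median change was -0.63 in the first hour and 0.61 in the second. By library the level was 14.6, 15.0 and 14.5 FPKM at 2 h, against 10.1, 10.2 and 7.46 FPKM at 1 h, with replicate 3 the lowest. Of these, 520 no longer differed from 0 h at the threshold, 79 were still below and 17 were above. The 2 h against 0 h comparison called 34.5% of all genes tested, 24.1% higher and 10.4% lower. Peak genes were thus called above 0 h about as often as all genes tested. A missing call at 2 h does not show that a gene was back at its 0 h level.

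Returns were also steep for single genes. Nitab4.5_0000286g0060 had 1.80, 3.47 and 2.17 FPKM at 2 h, against 30.03, 7.02 and 37.0 FPKM at 1 h (log2 change -2.63, SE 0.479, adjusted p = 0.000471). At 0 h it had 0.931 ± 0.809 FPKM. Its 1 h libraries were widely spread, with replicate 2 lowest, and the gene stood again at 14.1 ± 4.00 FPKM at 8 h. Among 62 dip genes that met the criteria for naming, the largest recovery was that of Nitab4.5_0000993g0100, a gene of low level. It had 6.03, 8.89 and 8.24 FPKM at 2 h, against 2.87, 1.03 and 0.745 FPKM at 1 h (log2 change 1.85, SE 0.338, adjusted p = 0.000491). At 0 h it had 5.71 ± 2.55 FPKM, with replicate 1 as low as 2.77 FPKM.

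Continued change was upward in 403 genes and downward in 136. Genes with a continued rise had medians of 15.5, 24.0 and 33.2 FPKM at 0, 1 and 2 h, followed by 45.6 and 41.5 FPKM at 4 and 8 h. Their median changes were 0.53 and 0.46 in the first and second hour, and 31 of the 403 genes rose at least 2-fold in the second. Those 31 started from a median of 2.37 FPKM at 0 h, with 17.7 FPKM at 2 h and 59.3 FPKM at 8 h. Nitab4.5_0000640g0140 had 17.3, 28.7 and 18.6 FPKM at 2 h, against 5.72, 2.17 and 4.53 FPKM at 1 h (log2 change 2.17, SE 0.233, adjusted p = 7.06e-07), and reached 115 ± 4.88 FPKM at 4 h. Genes with a continued fall had medians of 54.9 FPKM at 0 h, 34.0 at 1 h and 23.6 at 2 h. Nitab4.5_0000246g0260 had 11.9, 16.6 and 14.1 FPKM at 2 h, against 67.2, 47.7 and 33.7 FPKM at 1 h (log2 change -1.69, SE 0.325, adjusted p = 0.000789), and 137 ± 14.2 FPKM at 0 h.

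Genes without a call in the first hour made up the largest share. In 1355 of them the level rose at the step, with medians of 10.3 FPKM at 0 h, 9.86 at 1 h and 14.3 at 2 h, and 846 were called above 0 h at 2 h. In 431 the level fell, with medians of 22.1 FPKM at 0 h, 22.8 at 1 h and 14.5 at 2 h, and 293 were called below 0 h. The remaining 509 and 138 passed the test at the step but not against 0 h.

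These counts moved with the processing. After median-of-ratios scaling there were 863 peaks and 521 dips, 255 continued rises and 236 continued falls, and 687 new rises and 835 new falls. Without K326 1 h replicate 3 the returns were 361 peaks and 211 dips, 572 in all, and without replicate 1 there were 376 peaks and 834 dips.

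**Figure D3:**
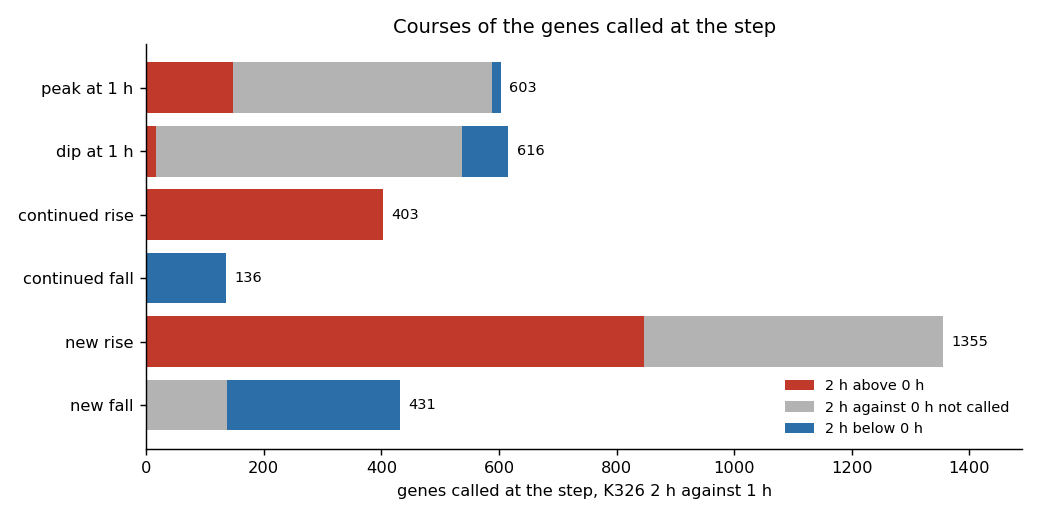
Bars count the genes called at the step in K326, 2 h against 1 h, by course. Red, grey and blue parts show genes called above 0 h, not called and called below 0 h at 2 h. Most peak and dip genes (440 of 603 and 520 of 616) fall in the grey part. Of all genes tested, 34.5% were called in that comparison.

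The change between 4 and 8 h was not used to define the courses, although the libraries of these times entered the expression filter and the residual spread, so it is not an independent reading. In that comparison the median gene moved by 0.10, and 19.4% of all genes tested were called higher and 8.57% lower at 8 h than at 4 h. Of the 403 genes with a continued rise, 136 (33.7%) were lower at 8 h than at 4 h and 81 (20.1%) higher, with a median change of -0.12. Of the 603 peak genes, 126 (20.9%) were higher at 8 h and 98 (16.3%) lower. Of the 616 dip genes, 132 (21.4%) were higher and 71 (11.5%) lower, and of the 136 genes with a continued fall 38 (27.9%) were higher and 36 (26.5%) lower. Of the new rises 265 (19.6%) were higher and 148 (10.9%) lower, and of the new falls 92 (21.3%) were higher and 78 (18.1%) lower. For peak, dip and both new courses the share higher at 8 h was thus close to the 19.4% of all genes tested. The named peak gene Nitab4.5_0000286g0060 was among the peak genes higher at 8 h (log2 change 2.10, SE 0.479, adjusted p = 0.00151).

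**Figure D4:**
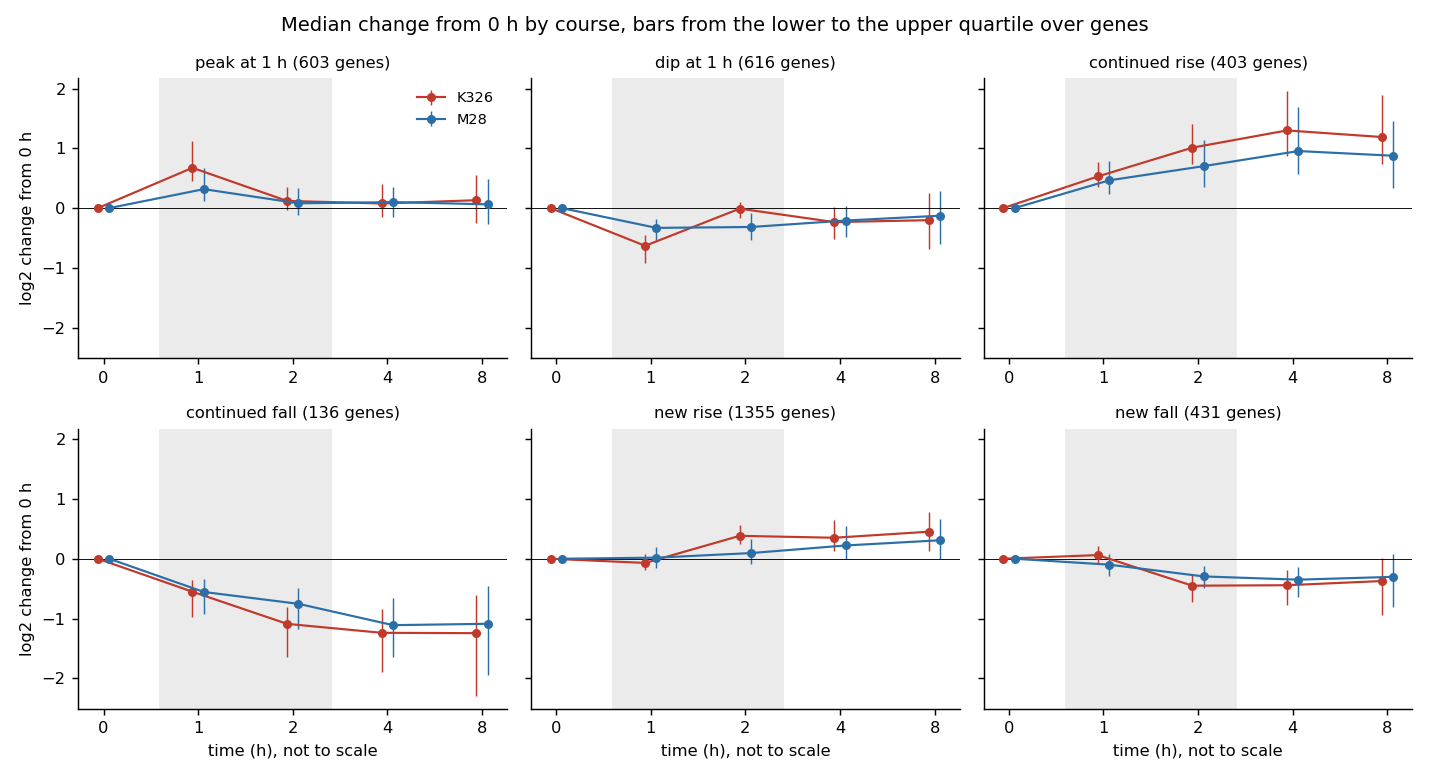
Points are the median over genes of the log2 change from 0 h of the same genotype, at each time (x axis, not to scale), and bars run from the lower to the upper quartile over genes. Red is K326 and blue is M28, and the courses were chosen on K326 at 0, 1 and 2 h, so the shapes at these times in K326 are those the choice sets.

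The step was set beside the same step in M28, which shares no library with it. M28 gave 835 calls from 1 to 2 h (4.26% of all tested), 460 higher (2.35%) and 375 lower (1.91%). Pearson's r between the changes in K326 and in M28 was 0.378 across the 19599 genes and 0.627 across the 3544 genes called in K326. Genes are not independent replicates, and K326 and M28 calls use the same residual spread of a gene. Of the 161 genes that rose at least 2-fold in K326, 42 (26.1%) were called higher and 0 lower in M28. Their median change was 1.17 in K326 and 0.09 in M28. Of the 162 that fell at least 2-fold in K326, 38 (23.5%) were called lower and 0 higher in M28, with median changes of -1.21 in K326 and -0.53 in M28. The lists were chosen on the K326 step, which by itself enlarges the K326 medians. The difference of the steps, tested below, was called for few of them. It was higher in K326 in 7 of the 161, against 0.587% of all genes tested. In 18 of the 162 it was lower, against 0.27%.

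By course, the share called in the same direction in M28 was highest for the continued rise. At the M28 step 153 of the 403 genes (38.0%) were higher and 3 (0.744%) lower. The 4 genes named for the largest steps in K326 were all called in the same direction in M28. Nitab4.5_0005259g0040 changed by 2.72 in M28 (SE 0.188, adjusted p = 1.06e-09) and Nitab4.5_0002113g0180 by -2.28 (SE 0.331, adjusted p = 0.000117). Of the 603 peak genes 90 (14.9%) were lower and 0 higher at the M28 step. In the first hour 272 of them (45.1%) had risen in M28, against 12.6% of all genes tested. Their median changes in M28 were 0.32 in the first hour and -0.26 in the second. Of the 616 dip genes 41 (6.66%) were higher and 2 (0.325%) lower, and 215 (34.9%) had fallen in the first hour in M28, against 10.6% of all genes tested. Their M28 medians were -0.33 in the first hour and 0.06 in the second. The median of these genes at 2 h, relative to 0 h, was -0.01 in K326, on which they were chosen, and -0.32 in M28. The difference of the steps was called higher in K326 for only 23 of the 616, against 0.587% of all genes tested. Nitab4.5_0000993g0100 had 2.34, 0.737 and 1.53 FPKM at 2 h in M28, against 0.718, 0.879 and 2.45 FPKM at 1 h, groups that overlapped (log2 change 0.13, adjusted p = 0.897). The difference of its step, K326 minus M28, was 1.72 (SE 0.478) and missed the threshold (adjusted p = 0.077). Of the 136 continued falls 24 (17.6%) were lower in M28, of the 1355 new rises 109 (8.04%) were higher, and of the 431 new falls 47 (10.9%) were lower.

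A call in K326 and none in M28 does not show a difference, and the difference of the steps was tested directly. It was called for 168 genes (0.857%), 115 with a higher change in K326 (0.587%) and 53 with a lower one (0.27%). Of the 115, 93 rose in K326 without a call in M28 and 8 rose in K326 and fell in M28. Of the 53, 42 fell in K326 without a call in M28. The count was unstable. It was 7 when only the 1 and 2 h libraries of both genotypes were fitted, and with single libraries left out it lay between 33 (without M28 2 h replicate 2) and 438 (without K326 1 h replicate 1). Of the 12 fits without 1 library of these 4 groups, 9 moved the count by more than 1.5 times. After median-of-ratios scaling 253 genes were called, with 68 higher and 185 lower in K326, and after quantile normalization 68 higher and 143 lower.

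Of 28 genes eligible to be named as higher in K326, Nitab4.5_0000082g0020 differed most. In K326 it had 1.85, 2.59 and 2.52 FPKM at 2 h, against 0.782, 0.489 and 0.835 FPKM at 1 h. In M28 it had 1.57, 1.33 and 3.80 FPKM at 2 h, against 6.90, 9.31 and 8.09 FPKM at 1 h. It rose in K326 and fell in M28, without overlap in either genotype (difference of the log2 changes 2.53, SE 0.421, adjusted p = 0.00576). The gene met the level of 5 FPKM for naming only through M28 at 1 h. Its K326 means at 1 and 2 h were low, at 0.702 and 2.32 FPKM. At 8 h it had 14.3 ± 1.55 FPKM in K326 and 30.04 ± 5.41 FPKM in M28. Nitab4.5_0000723g0160 had 9.93, 10.6 and 21.7 FPKM at 2 h in K326, against 4.06, 1.51 and 3.98 FPKM at 1 h. In M28 it had 26.1, 22.9 and 79.8 FPKM at 2 h, against 49.2, 52.8 and 54.4 FPKM at 1 h. Its M28 libraries overlapped, with replicate 3 at 2 h above all others. The difference of the steps was 2.34 (SE 0.525, adjusted p = 0.0324). Later, K326 had 62.2 ± 13.6 FPKM, against 62.9 ± 27.7 FPKM in M28, at the 4 h time point. The 8 h values were 445 ± 103 FPKM for K326, against 533 ± 138 FPKM for M28.

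Downward in K326 relative to M28, Nitab4.5_0004430g0020 had 113, 111 and 78.6 FPKM at 2 h in K326, against 202, 124 and 163 FPKM at 1 h. In M28 it had 91.3, 99.0 and 71.3 FPKM at 2 h, against 62.3, 49.3 and 44.8 FPKM at 1 h. The libraries of 2 h and 1 h did not overlap in K326 or in M28. Neither step passed its own test (adjusted p = 0.0533 in K326 and 0.0917 in M28), while the difference did (-1.41, SE 0.346, adjusted p = 0.0481). Nitab4.5_0000052g0220 had 20.1, 24.5 and 23.3 FPKM at 2 h in K326, against 73.9, 42.2 and 32.0 FPKM at 1 h, a fall without overlap. In M28 it had 11.7, 11.3 and 10.7 FPKM at 2 h, against 7.56, 10.7 and 8.58 FPKM at 1 h, with a slight overlap (-1.32 for the difference, SE 0.276, adjusted p = 0.0219). Over 21 alternatives Nitab4.5_0000723g0160 lost its call for the difference in 7, Nitab4.5_0004430g0020 in 14 and Nitab4.5_0000052g0220 in 6, while Nitab4.5_0000082g0020 was called in all 21.

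**Figure D5:**
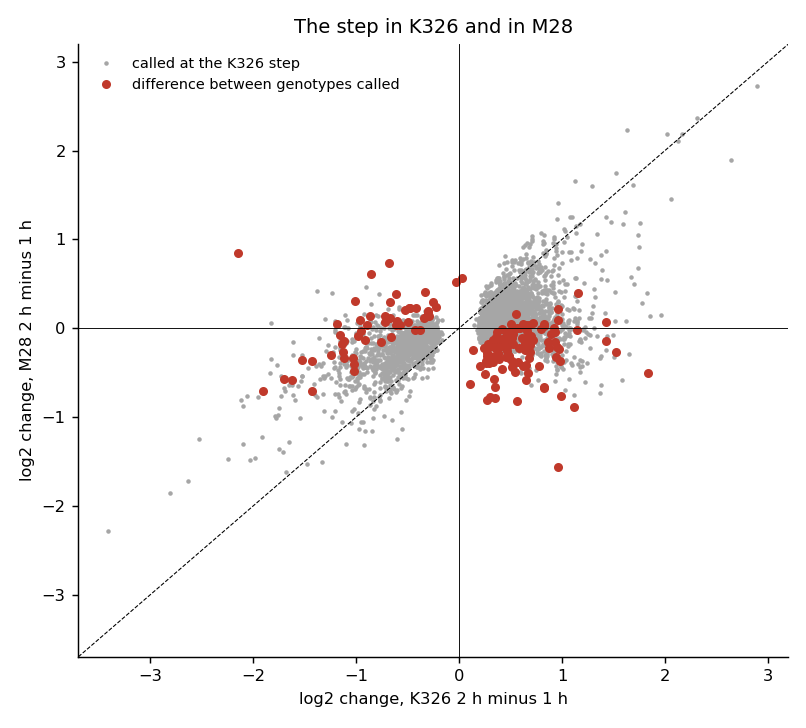
Each point is a gene, with its log2 change from 1 to 2 h in K326 on the x axis and in M28 on the y axis, and the dashed line marks equal changes. Grey points are genes called at the K326 step and red points the 168 genes called for the difference between the genotypes, 115 below the dashed line and 53 above it.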

How the data were processed

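RNA of K326 and M28 leaves was measured in 30 libraries, grouped by the labels' titles into genotypes and times. The authors deposited 1 table of FPKM values, and the unit was taken from its name and values. FastQC, Trimmomatic, HISAT2 and featureCounts are named in the submitters' processing notes, and their settings, the genome build and the FPKM step are not given in the sources used here. From these values log2(FPKM + 1) was computed for genes averaging 1 FPKM or more, with no further scaling. Group means of all 30 libraries were fitted with limma 3.58.1 in R 4.3.3, with a mean-variance trend and Benjamini-Hochberg adjustment within each contrast. The fit was also run on simulated data, with an outcome that is not given here. Those data gave a gene the same spread in all groups. They could therefore not show how the wider spread at 1 h affects the calls. Courses rest on the calls at 2 h against 1 h and at 1 h against 0 h, and the call at 2 h against 0 h only describes them. Relative depth came from the commonest ratio between 2 libraries among 5217 genes with a mean under 0.6 FPKM, and 36 library pairs gave 1 set of depths to within 0.001 (log2). No counting interval was computed.

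Named genes had an adjusted p below 0.05 and a log2 change, or difference of changes, of at least 1, and were ranked by size. At the step the higher group had a mean of at least 5 FPKM, without overlap. For the difference, the highest mean among the 1 and 2 h groups of both genotypes was at least 5 FPKM. Without names, 2 IDs were taken in each direction, 1 per returning or continued course, and 2 in each direction for the difference, where overlap was allowed. Members, lists and rules were chosen with earlier results of these data known. Gene lists could not be matched to the IDs and were not tested. Alternatives changed the pseudocount, the filter, the scaling, the libraries fitted and the replicate block.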

Additional observations from a re-analysis of the deposited data

Results flagged for a closer look

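For 168 genes the step from 1 to 2 h passed a test of K326 against M28 (limma, Benjamini-Hochberg). The named genes with the largest differences, K326 minus M28 on the log2 scale, were Nitab4.5_0000082g0020 (2.53), Nitab4.5_0000723g0160 (2.34), Nitab4.5_0004430g0020 (-1.41) and Nitab4.5_0000052g0220 (-1.32). Nitab4.5_0000082g0020 was called under every alternative run, although its K326 means were low, at 0.702 FPKM at 1 h and 2.32 FPKM at 2 h. The other 3 each lost their call when only the groups compared were fitted (adjusted p = 0.138, 0.103 and 0.128 by limma) and when certain single libraries were left out. Nitab4.5_0004430g0020 also lost it with equal totals (0.0535), without a filter (0.0793) and with a pseudocount of 0.1 FPKM (0.0701), and Nitab4.5_0000723g0160 without a filter (0.0557). Over 21 alternatives their adjusted p lay between 0.00949 and 0.138 for Nitab4.5_0000723g0160, between 0.0226 and 0.136 for Nitab4.5_0004430g0020, and between 0.0031 and 0.128 for Nitab4.5_0000052g0220.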

How the results depend on the processing

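Fitted alone, the groups compared gave 1618 calls at the step (962 higher, 656 lower), with 100 upward changes of at least 2-fold, 517 returns, 266 continued changes, 835 new changes and 7 genes differing between genotypes. Median-of-ratios scaling gave 1463 higher, 1934 lower and 253 for the difference, and quantile normalization 1514 higher and 105 upward changes of at least 2-fold. With a pseudocount of 0.1 FPKM 389 genes rose at least 2-fold, and without a filter 103 differed between genotypes. With single libraries left out, calls at the step ranged from 2300 to 3792 (1439 to 2560 higher), the highest without M28 8 h replicate 3, 2-fold changes from 116 to 306 upward and 110 to 265 downward, returns from 572 to 1539, new changes from 1183 to 2039, the difference from 33 to 438 and calls at the M28 step from 426 to 1001. For the difference, 342 genes were called without K326 1 h replicate 2, 84, 82 and 54 without K326 2 h replicates 1, 2 and 3, 41 without M28 1 h replicate 3, and 81 and 105 without M28 2 h replicates 1 and 3. Why these counts moved was not tested. The fits with single libraries left out and those of the groups compared alone also held fewer libraries. No named gene reversed in the alternatives run. The 8 genes named for the step or a course kept their step calls in them, except that Nitab4.5_0000993g0100 was not tested under a filter of 5 FPKM. Their adjusted p were larger when only K326 at 0, 1 and 2 h was fitted. They then lay between 0.000461 (Nitab4.5_0002113g0180) and 0.0159 (Nitab4.5_0000286g0060) by limma. The courses of the 8 genes were not refitted gene by gene. Replicate numbers did not pair K326 libraries (correlations of deviations between 2 h and 1 h of -0.05, -0.12 and 0.08, and 1 of 3 libraries matched its own number best). With the replicate block 3419 genes were called at the step and 139 for the difference. The unknown absolute depth limits genes under about 1 FPKM.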

Other observations

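The share of genes called at the step was larger at a mean of 100 FPKM or more than at 1 to 5 FPKM. The share with at least 2-fold changes was close to equal in these classes. Of genes with a mean of 1 to 5 FPKM, 7.76% were called higher and 3.52% lower, and of those at 100 FPKM or more 15.1% and 9.05%, with median standard errors of 0.204 and 0.095. Changes of at least 2-fold made up 1.84% of the first and 1.86% of the second class. The 100 most abundant genes did not share the larger proportion of calls. Of these, 7 (7.0%) were higher, 4 (4.0%) were lower and 0 changed 2-fold. The shares of all genes tested were 12.1%, 5.97% and 1.65%.

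Each ID names a scaffold and a running number, and the IDs that follow each other on a scaffold were compared among the genes tested. Of 159 genes that rose at least 2-fold and had such a neighbour, 8 (5.03%) had one that rose 2-fold as well, against 1.47% of all 19154 genes with a neighbour. Of 153 that fell at least 2-fold, 8 (5.23%) had a neighbour that did, against 1.4%. Over all genes called the shares lay nearer to the reference, at 24.1% against 20.1% for those called higher and 11.8% against 10.1% for those called lower. The 2-fold counts are small, and both genes of a neighbouring pair were counted. Whether neighbours are copies that share reads was not tested.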
